A study of Mus musculus with 9 samples.

Results

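The genes examined were 10 markers of tuft cells, the chemosensory cells of the intestinal epithelium: Pou2f3, Gfi1b, Trpm5, Il25, Alox5, Alox5ap, Ptgs1, Dclk1, Avil and Sh2d6. They were taken by gene symbol, and all 10 were found among the 35013 genes listed in each of 2 tables of normalized counts. The RNA came from small intestinal epithelium of mice a few weeks old, with the attached pancreas removed. All 9 libraries shared 1 genotype, Neurog3Cre-FoxO1 f/f with a Rosa26tdtomato reporter (NFKO). Cre under Neurog3 control both deletes FoxO1 and switches on the red reporter, so Tomato+ cells descend from cells that once expressed Neurog3, whereas Tomatoneg cells are epithelium of NFKO mice in which the reporter stayed off. Cells were stained for the epithelial protein Epcam and for CD24, a surface glycoprotein, and sorted as CD24negTomato+, CD24+Tomato+ or Tomatoneg cells, with 3 biological replicates each. In the first table CD24negTomato+ libraries stand beside Tomatoneg ones, in the second CD24+Tomato+ libraries stand beside the same 3 Tomatoneg ones, and both comparisons therefore share their controls. No library from mice with intact FoxO1 was included, and the comparisons are therefore between populations, not between genotypes. The question addressed here was how the tuft cell genes distribute over the populations that the study sorted to separate descendants of Neurog3+ progenitors.

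Tuft cells sense luminal metabolites, parasites and bacteria through G protein-coupled receptors, calcium release and the cation channel Trpm5. They answer with the cytokine IL-25, which acts on group 2 innate lymphoid cells, and with leukotrienes and prostaglandins made from arachidonic acid. The transcription factor Pou2f3 is required for their formation. Several of their genes, among them those of the leukotriene pathway, are also used by leukocytes.

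Estimated library sizes ran from 19157905 to 39233080 reads. The sorted populations differed as follows in the genes that defined the sort or the genotype. Cd24a, which encodes CD24, stood at 993 to 2054 normalized counts in CD24negTomato+ libraries, and at 25857 to 30949 in CD24+Tomato+ libraries against 3170 to 5914 in Tomatoneg libraries of the same table. Neurog3 itself was at 14.6 to 41.2 in CD24negTomato+ and at 1319 to 1364 in CD24+Tomato+ libraries, against 102 to 182 in Tomatoneg libraries of the second table. Foxo1 was at 467, 274 and 371 in CD24negTomato+ replicates 1, 2 and 3 against 695, 518 and 424 in Tomatoneg replicates, with adjusted P = 0.427. In the second table Foxo1 was at 319, 193 and 201 in CD24+Tomato+ replicates against 748, 529 and 444 in Tomatoneg replicates, with adjusted P = 0.0579. Reads from Foxo1 exons outside the deleted part still count, so these values check the deletion only in part. Neither Tomato+ population was a pure cell type by its markers. Against Tomatoneg, CD24+Tomato+ libraries had higher levels of 6 of 6 enteroendocrine, 5 of 5 Paneth and 5 of 5 goblet cell markers, and CD24negTomato+ libraries of 4 of 6 enteroendocrine, 5 of 5 goblet and 0 of 5 Paneth cell markers. Among all genes tested, 8.02% were called higher in CD24+Tomato+ and 0.999% in CD24negTomato+ cells. In CD24negTomato+ cells the 5 Paneth cell markers had a median log2 fold change of -1.24 with none called. The 4 stem cell markers lay below every Tomatoneg library, which held for 10.6% of all genes. Their median was -2.78 and 1 was called lower (Olfm4, adjusted P = 0.0400), beside 0.320% of all genes. In CD24+Tomato+ cells 3 of 4 enterocyte markers were lower, with a median of -2.68, beside 4.89% of all genes. None of the 4 stem cell markers was called there. Their part in the values of the tuft cell genes was not tested. Tomatoneg replicate 1 stood apart. It held values above 0 for 13025 genes, against 15644 and 16008 in the other Tomatoneg libraries, and it listed 21 genes at 0 that were at 100 or more in each of the other 8 libraries. Gfi1b, Il25 and Ptgs1 were also listed at 0 there, so values without that library are given beside the results that it moves most.

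The regions just upstream of 3 genes, chosen because they had the smallest adjusted P among the 10 in CD24+Tomato+ cells, are shown as the sequence context of members that moved together. Each is the 250 bases before the RefSeq start on the gene's own strand, in GRCm38.p6 coordinates, and none overlapped an annotated exon. The region of Sh2d6 lies inside the gene as GENCODE annotates it, downstream of the GENCODE start. The capitals mark ATGCAAA, the first 7 letters of the octamer ATGCAAAT that POU factors are known to bind, or its reverse complement. The octamer and its shorter form were chosen as motifs after the expression values had been seen, and the matches of the 2 overlap by construction.
Avil, chr10:127000459-127000708, plus strand: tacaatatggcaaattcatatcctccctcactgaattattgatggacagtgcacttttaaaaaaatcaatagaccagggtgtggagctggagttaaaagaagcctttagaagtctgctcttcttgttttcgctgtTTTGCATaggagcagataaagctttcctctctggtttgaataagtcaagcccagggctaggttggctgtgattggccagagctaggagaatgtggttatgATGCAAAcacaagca
Trpm5, chr7:143094643-143094892, minus strand: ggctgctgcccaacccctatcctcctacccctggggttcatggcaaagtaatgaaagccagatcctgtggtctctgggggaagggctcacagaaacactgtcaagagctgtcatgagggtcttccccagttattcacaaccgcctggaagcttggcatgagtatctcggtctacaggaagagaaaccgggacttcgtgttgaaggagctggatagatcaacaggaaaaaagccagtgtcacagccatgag
Sh2d6, chr6:72520037-72520286, minus strand: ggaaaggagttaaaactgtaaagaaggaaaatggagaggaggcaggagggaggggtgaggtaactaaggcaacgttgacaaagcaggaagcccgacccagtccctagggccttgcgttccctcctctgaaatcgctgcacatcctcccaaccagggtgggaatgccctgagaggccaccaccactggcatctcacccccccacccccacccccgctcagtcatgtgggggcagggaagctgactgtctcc
Searched on both strands, the upstream region of Avil held ATGCAAA at 2 places, beginning 115 and 15 bases before the start. It was the only 1 of 8 upstream regions, belonging to 7 of the 10 genes, to hold it, and none of the 8 held the full octamer. Among 32841 upstream regions of the same length, 4.13% held the 7-letter form and 1.60% the octamer. A match is a description of letters and not a bound site, and the regions of Pou2f3, Il25 and Alox5ap were not analysed here.

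The 10 genes were low in CD24negTomato+ cells, intermediate in Tomatoneg cells and high in CD24+Tomato+ cells, with the exceptions given below. In CD24negTomato+ libraries the values of the 10 genes summed to 453, 407 and 402 normalized counts in replicates 1, 2 and 3, against 1446, 2222 and 1713 in Tomatoneg libraries. In CD24+Tomato+ libraries the sum was 18303, 15988 and 15278, against 1700.1, 2444 and 1925 in Tomatoneg libraries of that table. Neither pair of groups overlapped. The Tomatoneg values differ between the tables because the deposited values were scaled gene by gene within each table, by up to 1.34-fold for Dclk1, so levels are compared only within a table. In sorted bulk RNA, fewer tuft cells and less RNA per tuft cell cannot be told apart. The labels name a CD24 gate for both Tomato+ groups and none for Tomatoneg cells. Reporter status and CD24 selection therefore cannot be told apart in either comparison.

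**Figure D1:**
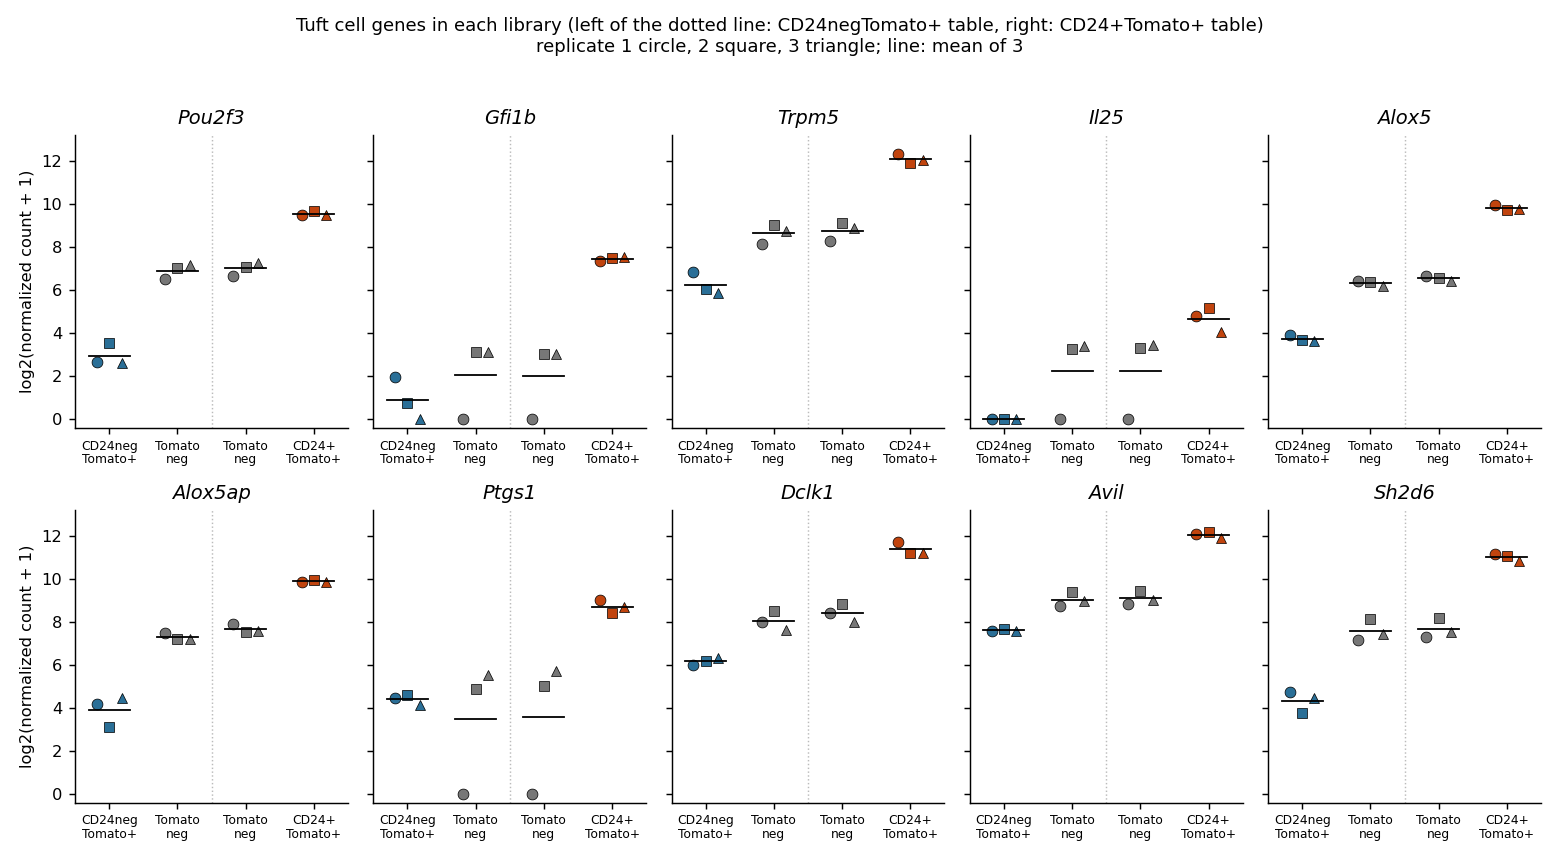
Level of each tuft cell gene in every library, as log2(normalized count + 1) on the vertical axis, with points for replicates 1 to 3 and a line at the mean of the 3 log values. Blue points are CD24negTomato+, gray Tomatoneg and orange CD24+Tomato+ libraries, and the dotted line parts the 2 separately scaled tables. In all 10 panels the CD24+Tomato+ libraries sit above every Tomatoneg library, and Ptgs1, Gfi1b and Il25 are listed at 0 in Tomatoneg replicate 1.

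In the test across all genes, limma on log2(normalized count + 1) at an adjusted P of 0.05, CD24+Tomato+ cells had higher levels of 8 of the 10 genes, and none of the 10 was lower. Over all 13874 genes tested, 8.02% were higher and 4.89% lower at that adjusted P. At an unadjusted limma P of 0.05, 9 of the 10 were higher and 0 lower, beside 2265 and 1598 of all genes. All 10 genes were above every Tomatoneg library, which held for 21.6% of all genes tested. With same-numbered libraries as pairs 9 were higher, beside 10.8% of all genes, and without Tomatoneg replicate 1 it was also 9, beside 11.6%. Without CD24+Tomato+ replicate 2 the count was 5, as Pou2f3, Gfi1b and Alox5ap no longer passed, at adjusted P = 0.0602, 0.104 and 0.0546. Over all genes, 127 of 13825 were called higher without that library, against 1113 of 13874 with it. Gfi1b and Il25 reached the mean of 10 needed for testing only through the CD24+Tomato+ libraries, so they could enter that test only where they were high. The median log2 fold change of the 10 was 3.11, beside 0.16 over all genes tested.

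In CD24negTomato+ cells 3 of the 8 genes tested were lower, Pou2f3, Alox5ap and Sh2d6, and none was higher. Among all 13420 genes tested, 0.320% were lower and 0.999% higher. The groups did not overlap for 7 of the 8, all lower, beside 10.6% of all genes. The count of 3 was sensitive to single libraries. It rose to 6 with same-numbered libraries as pairs, beside 2.96% of all genes, and to 7 without Tomatoneg replicate 1, beside 3.29%. It fell to 0 without any single one of CD24negTomato+ replicates 1, 2 or 3 or Tomatoneg replicates 2 or 3. At an unadjusted limma P of 0.05, 7 of the 8 were lower and 0 higher with all 6 libraries, beside 915 and 1377 of all genes. At that P 7 were lower in each of these sets of 5, beside 475 to 766 of all genes. The median log2 fold change of the 8 was -2.49, beside 0.08 over all genes tested. Gfi1b and Il25 were below the mean of 10 in this table and were not tested.

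**Figure D2:**
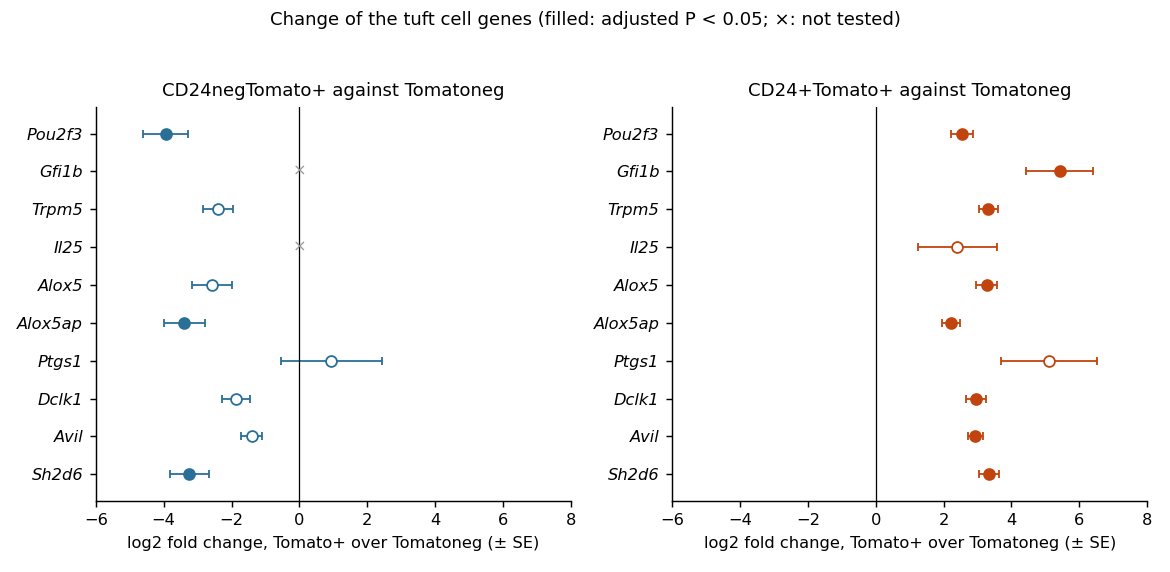
Log2 fold change of each tuft cell gene, Tomato+ over Tomatoneg, on the horizontal axis with its standard error, for CD24negTomato+ (left, blue) and CD24+Tomato+ (right, orange). Filled points passed an adjusted P of 0.05 and crosses mark genes not tested. On the left 7 of 8 points lie below 0 and 3 are filled, and on the right all 10 lie above 0 and 8 are filled.

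Among the regulators, Pou2f3 is the POU domain transcription factor that specifies tuft cells, annotated at chr9:43123939-43210369 on the minus strand in GRCm38. Its normalized counts were 5.39, 10.7 and 5.23 in CD24negTomato+ replicates 1, 2 and 3, against 91.8, 128 and 141 in Tomatoneg replicates. Every CD24negTomato+ library was below every Tomatoneg library, and the log2 fold change was -3.94 (SE 0.66, adjusted P = 0.0397, n = 3 per group), the largest fall among the 8 genes tested. In the second table Pou2f3 was at 716, 812 and 711 in CD24+Tomato+ replicates against 101, 134 and 152 in Tomatoneg replicates, without overlap. The log2 fold change was 2.54 (SE 0.31, adjusted P = 0.00567). Gfi1b, at chr2:28609450-28621982 on the minus strand, encodes a zinc finger repressor known from blood and tuft cells. It was near or below the level of 3 reads, 2.22 to 2.83 normalized counts, in CD24negTomato+ libraries, at 2.91, 0.697 and 0, and in Tomatoneg libraries it was listed at 0 in replicate 1 and at 7.76 and 7.64 in replicates 2 and 3. In CD24+Tomato+ libraries Gfi1b was at 160.3, 181 and 182 normalized counts, against 0, 7.23 and 7.29 in Tomatoneg libraries. Its log2 fold change of 5.42 (SE 0.98, adjusted P = 0.0159) depends on the pseudocount because of the listed 0. Without Tomatoneg replicate 1 it was 4.41, with adjusted P = 0.00222. The call was lost without any 1 CD24+Tomato+ library, where adjusted P ran from 0.0701 to 0.104.

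Trpm5, at chr7:143069153-143094642 on the minus strand, is the calcium-activated cation channel that depolarizes taste and tuft cells. It was at 115, 65.4 and 56.8 normalized counts in CD24negTomato+ libraries and at 279, 526 and 434 in Tomatoneg libraries. The groups did not overlap, but the log2 fold change of -2.39 (SE 0.45) missed the threshold, at adjusted P = 0.0512, and passed it with pairs, at 0.0389, and without Tomatoneg replicate 1, at 0.0200. Trpm5 in CD24+Tomato+ libraries was at 5102, 3786 and 4233, against 310.5, 556 and 471 in the controls. The log2 fold change was 3.32 (SE 0.27, adjusted P = 0.00152). Il25, at chr14:54932695-54935837 on the plus strand, encodes the cytokine that tuft cells send to group 2 innate lymphoid cells. It was listed at 0 in all 3 CD24negTomato+ libraries, where 3 reads would be worth 2.22 to 2.83 normalized counts, and at 0, 8.75 and 9.65 in Tomatoneg libraries. The CD24+Tomato+ libraries held 26.6, 35.1 and 15.4, against 0, 8.89 and 10.1. All 3 were above every Tomatoneg library, yet the log2 fold change of 2.41 (SE 1.17) did not pass, at adjusted P = 0.23, and in none of the 12 alternatives in which it could be tested did adjusted P fall below 0.156.

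Of the eicosanoid genes, Alox5, at chr6:116410077-116461178 on the minus strand, encodes 5-lipoxygenase, which begins leukotriene synthesis. Its normalized counts were 14.2, 11.8 and 11.3 in CD24negTomato+ libraries and 84.1, 81.9 and 71.6 in Tomatoneg libraries. There was no overlap, but the log2 fold change of -2.58 (SE 0.60) did not pass, at adjusted P = 0.0851, nor with pairs, at 0.0714. Without Tomatoneg replicate 1 it passed, at 0.0378. Alox5 in CD24+Tomato+ libraries was at 1006, 838 and 870.3, against 101, 93.6 and 84.0 in Tomatoneg libraries (log2 fold change 3.27, SE 0.30, adjusted P = 0.00217), and its same-numbered pairs ranged narrowly from 3.15 to 3.36.

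Alox5ap, at chr5:149264767-149288153 on the plus strand, encodes the membrane protein that presents arachidonic acid to 5-lipoxygenase. It was at 17.2, 7.54 and 20.7 normalized counts in CD24negTomato+ libraries, against 179, 145 and 147 in Tomatoneg libraries (log2 fold change -3.39, SE 0.60, adjusted P = 0.0477). In the second table it was at 921.5, 970.1 and 929.7 in CD24+Tomato+ libraries against 237, 182 and 189 in Tomatoneg libraries. Its log2 fold change of 2.22 (SE 0.27, adjusted P = 0.00536) was the smallest of the 8 that passed. Ptgs1, at chr2:36230426-36252272 on the plus strand, encodes cyclooxygenase-1, the constitutive enzyme of prostaglandin synthesis. It was the exception in CD24negTomato+ cells, at 21.3, 23.1 and 16.6, against 0, 28.1 and 44.9 in Tomatoneg libraries. The groups overlapped and the log2 fold change was 0.94 (SE 1.48, adjusted P = 0.777), turning to -0.66 with quantile normalization and to -0.79 without Tomatoneg replicate 1. In CD24+Tomato+ libraries Ptgs1 was at 509, 339.8 and 411, against 0, 31.8 and 52.1. The log2 fold change of 5.11 (SE 1.42, adjusted P = 0.0564) just missed the threshold. It passed with pairs, at 0.0284, and without Tomatoneg replicate 1 it was 3.31 with adjusted P = 0.00341.

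Dclk1, at chr3:55242364-55539068 on the plus strand, encodes a microtubule-associated kinase that is a widely used tuft cell marker. Its normalized counts were 62.4, 71.9 and 78.6 in CD24negTomato+ libraries, against 253, 357 and 194 in Tomatoneg libraries. The groups did not overlap, and the log2 fold change of -1.86 (SE 0.41) had adjusted P = 0.0775, which became 0.0492 with pairs and 0.0402 without Tomatoneg replicate 1. Dclk1 in CD24+Tomato+ libraries was at 3366, 2330.0 and 2322, against 338, 453 and 253, a log2 fold change of 2.96 (SE 0.29, adjusted P = 0.00281). Avil, at chr10:127000709-127020994 on the plus strand, encodes advillin, an actin-binding protein. It had the smallest fall of the 7 genes that were lower in every CD24negTomato+ library, at 189, 203 and 192 against 420.2, 666 and 491 in Tomatoneg libraries. The log2 fold change was -1.40 (SE 0.31, adjusted P = 0.0775), with adjusted P = 0.0389 with pairs and 0.0296 without Tomatoneg replicate 1. Avil in CD24+Tomato+ libraries was at 4246, 4558 and 3823, against 457, 688 and 521, and its log2 fold change of 2.94 (SE 0.23) had the smallest adjusted P of the 10, 0.00131.

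Sh2d6, at chr6:72513641-72521707 on the minus strand, encodes an adaptor with an SH2 domain. It was at 25.3, 12.4 and 21.2 normalized counts in CD24negTomato+ libraries, against 139, 274 and 171 in Tomatoneg libraries, and the difference on the log2 scale was -3.24 (SE 0.56, adjusted P = 0.0445). Its CD24+Tomato+ values were 2251, 2139 and 1779, against 154, 289 and 185, a log2 fold change of 3.33 (SE 0.30, adjusted P = 0.00193). Neither comparison showed overlap for Sh2d6. The size of the fall differed among members. The same-numbered pairs of Avil lay between -1.71 and -1.15 and those of Pou2f3 between -4.52 and -3.46 on the log2 scale, whereas the pairs of Alox5ap, from -4.09 to -2.77, and of Sh2d6, from -4.36 to -2.41, overlapped each other. In CD24+Tomato+ cells the pairs of Dclk1 (2.36 to 3.31), Avil (2.73 to 3.21), Trpm5 (2.76 to 4.03) and Sh2d6 (2.88 to 3.86) overlapped and no order among them can be read. On the annotation, exons of Trpm5, Avil, Dclk1, Alox5ap and Ptgs1 overlap exons of genes on the opposite strand (Tssc4, Tsfm, Gm21954 and Gm42609, Gm19719 and Gm43621), and reads from such stretches cannot be assigned without strand information.

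The values of 47 further genes associated with tuft cells were read by role. In CD24+Tomato+ cells 18 of the 42 tested were higher and 1 was lower, beside 8.02% and 4.89% of all genes. Without CD24+Tomato+ replicate 2 the calls fell to 4, without replicate 1 to 12 and without replicate 3 to 11. Over all genes the calls also fell, from 1113 higher and 678 lower. They were 127 and 41 without replicate 2, 336 and 333 without replicate 1, and 231 and 98 without replicate 3. In CD24negTomato+ cells 3 of the 38 tested were lower and none was higher, beside 0.320% and 0.999% of all genes. At an unadjusted limma P of 0.05 these counts were 13 and 2, beside 915 and 1377 of all 13420 genes. With pairs 5 were called, 4 lower, beside 2.96% of all genes, and 1 higher (Krt18, at adjusted P = 0.0219). Without Tomatoneg replicate 1 there were 9, 8 of them lower, beside 3.29% of all genes. No more than 1 was called without any other single library. The median log2 fold change was 2.74 in CD24+Tomato+ cells and -0.57 in CD24negTomato+ cells, beside 0.16 and 0.08 over all genes tested. Of the 47, 15 were listed at 0 in Tomatoneg replicate 1, against 4 and 6 in replicates 2 and 3. Chat, Nebl, Gnat3 and Sucnr1 reached the mean needed for testing only through the CD24+Tomato+ libraries, so they could enter the test only where they were high.

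**Figure D3:**
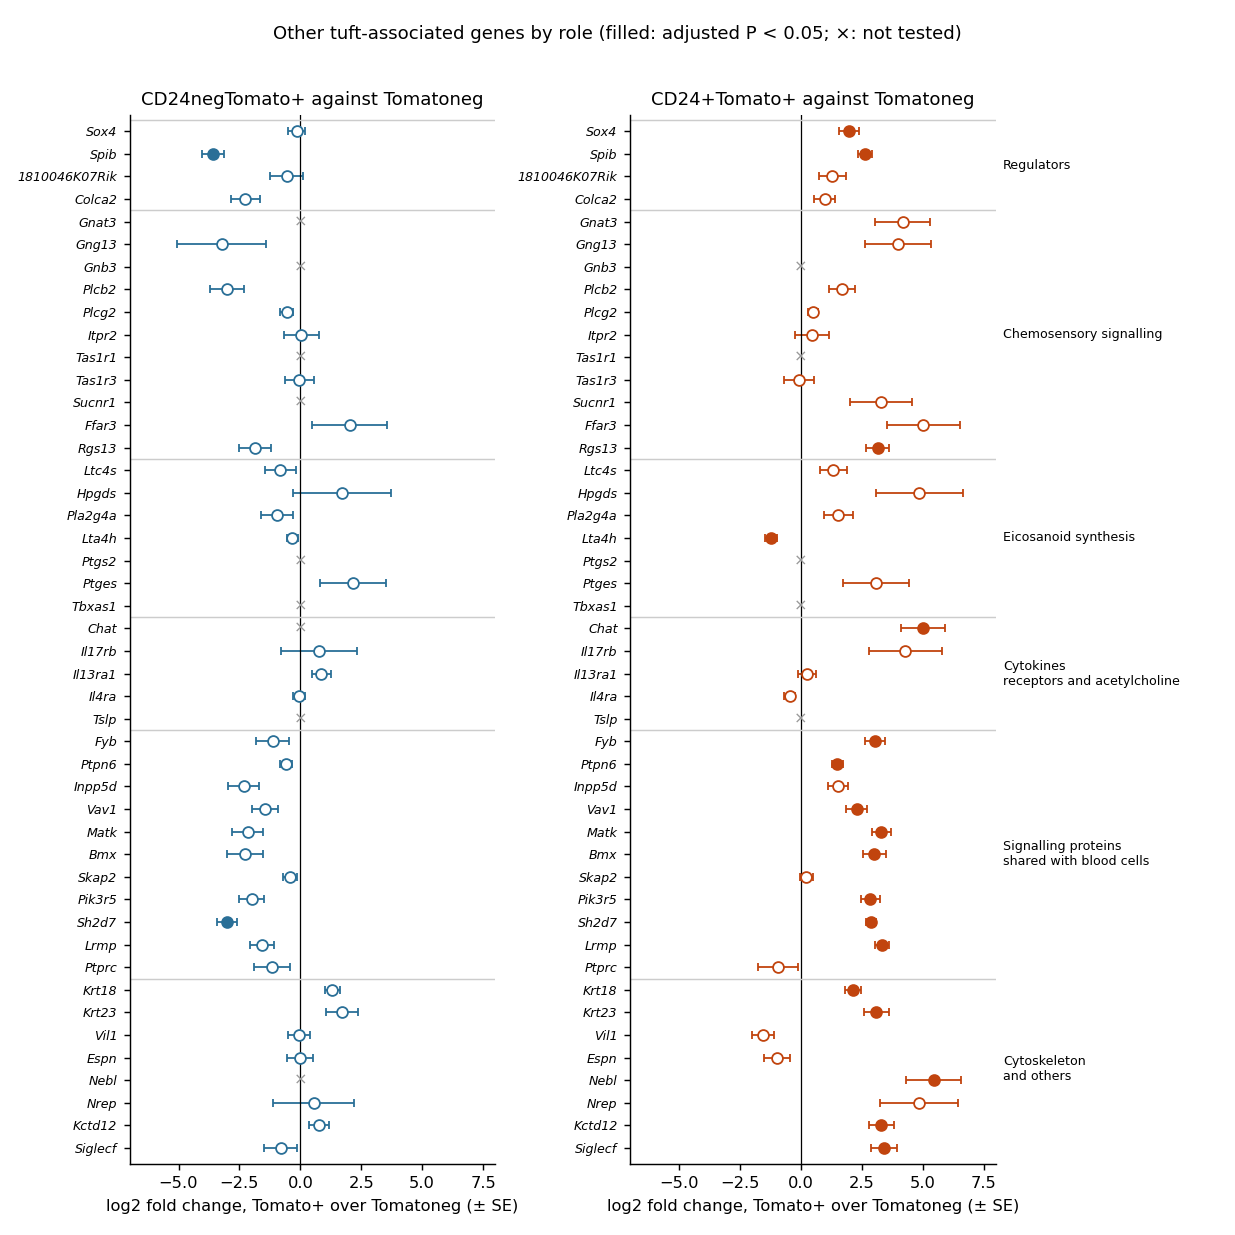
Log2 fold change with standard error, Tomato+ over Tomatoneg, of 46 other tuft-associated genes grouped by role, for CD24negTomato+ (left) and CD24+Tomato+ (right). Filled points passed an adjusted P of 0.05, of which the left panel has 2 and the right panel 18, and crosses mark genes not tested.

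Of 4 regulators, 2 were higher in CD24+Tomato+ cells, beside 8.02% of all genes. Spib, an Ets family transcription factor, was at 2102, 1919 and 2021 normalized counts there, against 469, 282 and 259 in Tomatoneg libraries (log2 fold change 2.63, adjusted P = 0.00357). Spib was also the gene of the list with the largest fall in CD24negTomato+ cells, at 34.7, 22.0 and 28.7 against 489, 309.6 and 277 (log2 fold change -3.59, adjusted P = 0.0164). Sox4, an SRY-box factor, was higher in CD24+Tomato+ cells (1.96, adjusted P = 0.0237) and did not move detectably in CD24negTomato+ cells (-0.14, SE 0.36, adjusted P = 0.863).

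Of 11 chemosensory genes, 9 were tested in CD24+Tomato+ cells and 1 passed, which is near the 8.02% of all genes called higher. This was Rgs13, a regulator of G protein signaling, at 946, 975 and 558.5 normalized counts against 131, 106 and 50.2 (log2 fold change 3.16, adjusted P = 0.00927). Gnat3, the G protein subunit gustducin of taste cells, was at 51.2, 34.3 and 27.0 in CD24+Tomato+ libraries against 0, 7.77 and 0 in Tomatoneg libraries, at adjusted P = 0.0540. Gng13 was at 115, 165 and 168 against 0, 16.4 and 45.1, at adjusted P = 0.101. Both were above every Tomatoneg library without passing the test. Without Tomatoneg replicate 1 Gnat3 was at a log2 fold change of 3.65 (adjusted P = 0.0537), and Gng13 passed at 2.39 (adjusted P = 0.0274). The sweet taste receptor subunit Tas1r3 gave -0.08 (SE 0.61, adjusted P = 0.946).

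Among 7 eicosanoid genes, of which 5 were tested, the only call was a fall, beside 4.89% of all genes called lower. Lta4h, the hydrolase that turns leukotriene A4 into leukotriene B4, was at 3171, 3224 and 4300.2 normalized counts in CD24+Tomato+ libraries against 7811, 7105 and 10092 in Tomatoneg libraries (log2 fold change -1.22, adjusted P = 0.0178). Its direction was opposite to that of Alox5 and Alox5ap, which act before it in the pathway. Alox5 was at only 84.0 to 101 in the same Tomatoneg libraries, and which cells carried Lta4h was not tested. Ltc4s, which makes leukotriene C4 from the same precursor, was at 328, 346 and 261 against 257, 61.2 and 114 and did not pass (1.34, SE 0.56, adjusted P = 0.17). Hpgds, the hematopoietic prostaglandin D synthase, was at 225, 182 and 56.7 against 0, 95.1 and 0, with overlap, and did not pass with or without Tomatoneg replicate 1 (adjusted P = 0.126 and 0.202).

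Of 5 cytokine, receptor and acetylcholine genes, 4 were tested and only Chat was higher, beside 8.02% of all genes. Chat makes acetylcholine, and it was at 82.6, 33.7 and 59.7 normalized counts in CD24+Tomato+ libraries against 0, 1.78 and 0.9 in Tomatoneg libraries, where the latter are below the level of 3 reads (log2 fold change 5.01, SE 0.91, adjusted P = 0.0158). Without Tomatoneg replicate 1 the log2 fold change of Chat was 4.61 (adjusted P = 0.00781). Il17rb, a subunit of the IL-25 receptor, was at 370.2, 204.5 and 222 against 0, 67.5 and 31.8, at adjusted P = 0.106, and passed without Tomatoneg replicate 1 (log2 fold change 2.44, adjusted P = 0.0172). The receptor chains Il4ra (-0.46, adjusted P = 0.262) and Il13ra1 (0.25, adjusted P = 0.714) gave no detectable difference.

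The 12 signaling genes shared with blood cells had 9 members higher in CD24+Tomato+ cells, beside 8.02% of all genes. In CD24negTomato+ cells 2 of them were lower, beside 0.320%. Sh2d7, an SH2 adaptor related to Sh2d6, rose by 2.88 on the log2 scale (adjusted P = 0.00124) in CD24+Tomato+ cells, and was at 40.7, 31.2 and 44.6 normalized counts against 314, 302 and 329 (adjusted P = 0.0182) in CD24negTomato+ cells. Further calls in CD24+Tomato+ cells were the adaptor Fyb (3.05), the phosphatase Ptpn6 (1.50), the exchange factor Vav1 (2.30), the kinases Matk (3.31) and Bmx (3.02), the phosphoinositide 3-kinase subunit Pik3r5 (2.86) and Lrmp (3.34). Ptprc, which encodes the leukocyte antigen CD45, did not rise with them, at 142, 51.0 and 40.5 against 222, 218 and 43.2 (-0.93, SE 0.83, adjusted P = 0.515). Of 8 cytoskeletal and other genes 5 were higher in CD24+Tomato+ cells, beside 8.02% of all genes. They were the keratins Krt18 (2.14) and Krt23 (3.10), the actin-binding Nebl (5.45, and 4.47 without Tomatoneg replicate 1), Kctd12 (3.30) and the lectin Siglecf (3.42).

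Because these genes are shared with leukocytes, markers of blood cells were read in the same libraries. The 9 T cell markers summed to 3171 to 11647 normalized counts in Tomatoneg libraries, against 592 to 1244 in CD24negTomato+ libraries, and in the second table to 3420 to 11930 against 436 to 453 in CD24+Tomato+ libraries. Of the 9, 3 were lower in CD24negTomato+ cells, beside 0.320% of all genes, and 7 in CD24+Tomato+ cells, beside 4.89%. The 6 B cell markers summed to 514 to 1748 in Tomatoneg and 85.2 to 209 in CD24negTomato+ libraries, and to 541 to 1815 and 111 to 264 in the second table. In CD24+Tomato+ cells the T and B cell lists lay low where the tuft cell genes lay high, and in CD24negTomato+ cells both lay low.

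In the second table myeloid markers summed to between 342 and 431 in CD24+Tomato+ libraries, against 557 to 961 in the controls. Itgam, at 205 to 236 against 445 to 521, held most of that sum, and 4 of the 7 tested had a log2 fold change above 0, among them C1qa, at 35.0, 40.1 and 51.0 against 0, 3.33 and 13.4, which did not pass (adjusted P = 0.0915). Itgam and Tyrobp were the 2 called lower. Platelet markers summed to between 460.2 and 495, against 648 to 1195, nearly all of it Gp1bb, and Ppbp was at 0 in every library. The 7 mast cell markers summed to 76.5 to 109 against 45.4 to 498, with overlap. Of these, Mcpt1 was lower, Ms4a2 and Fcer1a were at 0 in both groups, and Tpsb2 was at 9.06 to 13.4 against 0 to 3.31 and was not tested. Hdc, the histamine-forming enzyme, was higher, at 47.5, 87.9 and 88.1 against 1.33, 3.61 and 0 (log2 fold change 5.04, adjusted P = 0.0161), and it too could be tested only through the CD24+Tomato+ libraries. In the first table myeloid markers summed to 352 to 696 in CD24negTomato+ and 517 to 939 in Tomatoneg libraries, mast cell markers to 33.3 to 62.4 and 42.4 to 488, and platelet markers to 465 to 1008 and 608 to 1150, each with overlap. The part of blood cells in Tomatoneg libraries in the lower values of Alox5, Alox5ap, Spib and Sh2d7 in CD24negTomato+ cells was not tested.

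**Figure D4:**
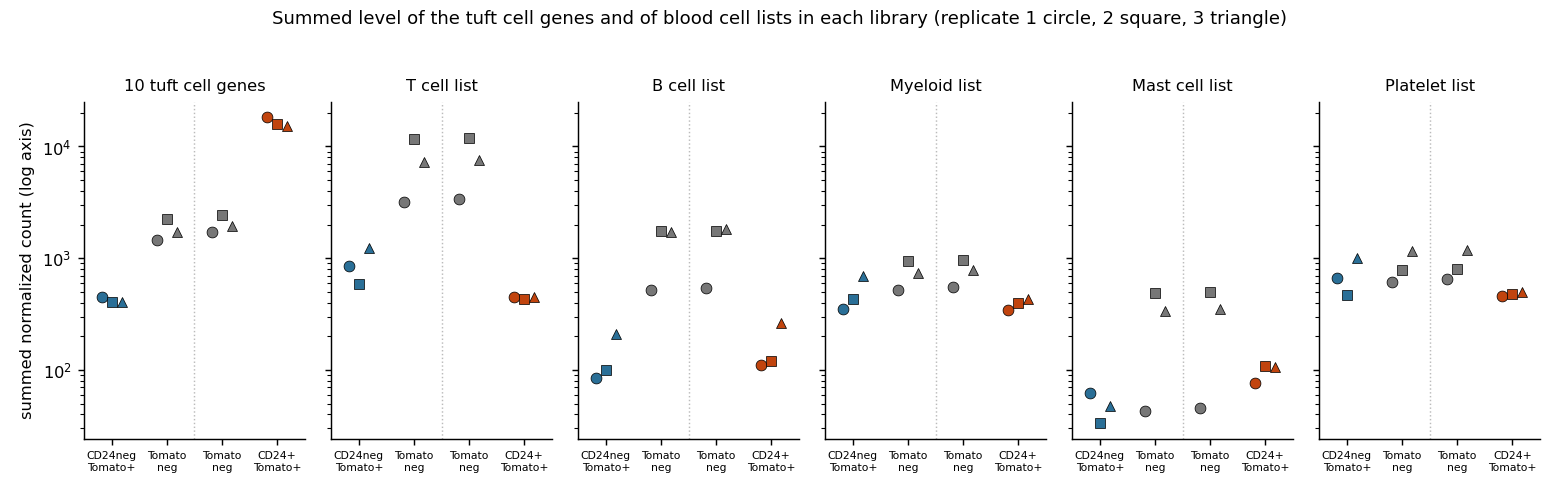
Summed normalized count, on a log axis, of the 10 tuft cell genes and of T cell, B cell, myeloid, mast cell and platelet markers in each library, with the 2 separately scaled tables parted by a dotted line. The tuft cell genes are highest in CD24+Tomato+ libraries, at 15278 to 18303, where the T cell markers are at 436 to 453.

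The genes most like the tuft cell genes across libraries were found by the correlation with the mean log2 level of the 8 genes tested in both tables, over the 6 libraries of each table, ranked by the smaller of the 2 coefficients among 13231 other genes. The 6 libraries fall into 2 groups, so a high coefficient mostly reflects a difference between the groups, and the values are a description. The 10 leading genes were Msi1 (smaller r 0.98), Tmem132a (0.98), Pik3cg (0.98), Ptpn6 (0.97), Uhrf1bp1 (0.96), Sh2d7 (0.96), A4gnt (0.95), Smtn (0.95), Tent5c (0.94) and Inpp5d (0.93). Ptpn6, Sh2d7 and Inpp5d were on the list of 47, of which 38 could be ranked and 13 stood among the first 100. Msi1, an RNA-binding protein known from intestinal stem cells, was at 54.4, 43.9 and 43.8 normalized counts in CD24negTomato+ libraries against 207, 241 and 270.3 in Tomatoneg libraries (log2 fold change -2.31, adjusted P = 0.0473). In CD24+Tomato+ libraries Msi1 was at 538, 490.1 and 485, against 223, 247 and 284, which did not pass (1.01, adjusted P = 0.0575). Pik3cg, the catalytic partner of Pik3r5, was at 782, 444 and 353 in CD24+Tomato+ libraries against 51.4, 112 and 90.0 (2.61, adjusted P = 0.0169), and at 12.1, 14.7 and 12.9 in CD24negTomato+ libraries against 42.9, 98.3 and 77.0 (-2.30, adjusted P = 0.134).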

How the data were processed

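Per the labels, poly-A RNA was made into Illumina TruSeq libraries. The submitters' processing notes name bcl2fastq 2.19, kallisto 0.44.0, sleuth, DESeq2 and GRCm38. The authors deposited 2 tables of normalized counts, a scaled signal per gene and library whose scaling varied by gene. Library sizes and 3-read levels were estimated from the value of 1 read, the most frequent low value. Only 46.2% to 67.0% of low values were whole multiples of it within 0.05 of a read, so no count test was run.

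Within each table, limma 3.58.1 (R 4.3.3, trend) was run on log2(normalized count + 1), keeping those genes whose mean over 6 libraries reached 10, two-sided, with Benjamini-Hochberg adjustment over all genes tested. The pseudocount makes the fold changes of low genes smaller, but a listed 0 in 1 library can enlarge them. Ptgs1 in CD24+Tomato+ cells was at 5.11, and at 3.31 without Tomatoneg replicate 1. An exact permutation test of 3 against 3 cannot go below 0.1. In simulated data for the CD24+Tomato+ comparison (13874 genes), 80% of genes changed by a log2 fold of 3 and 49% changed by 2 were recovered. For the CD24negTomato+ comparison (13420 genes) the shares were 72% and 54%. Each simulation used normal noise and changed 100 genes by each size, and 6.52% and 6.67% of the calls were false. The real CD24+Tomato+ comparison called 1113 genes higher and 678 lower, so the share recovered there may differ. Only genes with a mean log2 level above that of 50 normalized counts were changed, so the simulation does not cover lower genes such as Gfi1b and Il25. Same-numbered libraries deviated together (r from 0.291 to 0.342 in the first table and from 0.180 to 0.375 in the second), so the replicate numbers of the labels were used as pairs in an alternative fit. Nothing in the labels says that same-numbered libraries share animals.

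The 10 genes, the list of 47, the marker lists and the likeness rule were chosen with earlier results of these data known. Named genes were all 10 members, genes of the list of 47 that passed in either comparison and the 10 most alike. Others of the list and single markers of other cell types were named after their values were seen. A single gene of the list of 47 is counted but not reported here. Gene positions are from GENCODE M21 (GRCm38), and upstream sequences from RefSeq (GRCm38.p6), which matched 7 of the 10 symbols. Under equal library totals the median log2 fold change of all genes in the first table moved from 0.08 to -0.12. The calls there split into 134 higher and 43 lower, against 98 and 60 with equal totals and 304 and 190 with quantile normalization. In the second table they split into 1113 and 678, against 991 and 1036 with quantile normalization.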

Additional observations from a re-analysis of the deposited data

Results flagged for a closer look

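For 7 of the 10 genes every same-numbered pair moved down in CD24negTomato+ cells and up in CD24+Tomato+ cells, relative to Tomatoneg. How many of all genes moved this way in both comparisons was not counted. Taken singly, lying below every Tomatoneg library held for 10.6% of all genes in the first table. Lying above every Tomatoneg library held for 21.6% in the second. The log2 fold changes in CD24negTomato+ cells were -3.94 for Pou2f3, -1.86 for Dclk1, -2.39 for Trpm5, -2.58 for Alox5, -3.39 for Alox5ap, -1.40 for Avil and -3.24 for Sh2d6. In CD24+Tomato+ cells the same 7 genes were at 2.54, 2.96, 3.32, 3.27, 2.22, 2.94 and 3.33. The difference between the comparisons was not tested, since they share the Tomatoneg libraries and the tables were scaled separately.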

How the results depend on the processing

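The number of members called lower in CD24negTomato+ cells, 3, became 0 with a pseudocount of 0.1, 0 without a filter on low values, 0 with a minimum mean of 50, 5 with a pseudocount of 10, 6 with the replicate block and 7 with quantile normalization, and ranged from 0 to 7 with 1 library left out. For the list of 47 the 3 calls became 5 with the replicate block and 7 with quantile normalization, and ranged from 0 to 9 with 1 library left out. In CD24+Tomato+ cells the 8 members called ranged from 5 to 9 and the 19 calls of the list from 4 to 27 with 1 library left out. The replicate block changed no other member's call than those of Dclk1, Trpm5 and Avil in CD24negTomato+ cells and Ptgs1 in CD24+Tomato+ cells. The direction turned for Ptgs1 in CD24negTomato+ cells (-0.66 with quantile normalization, and from -0.79 without Tomatoneg replicate 1 to 1.97 with 1 library left out) and for Sox4 there (from -0.29 to 0.090, the latter without Tomatoneg replicate 2), and for no other member or gene of the list called in either comparison. The causes of these changes were not tested. Over all genes, the 177 calls in CD24negTomato+ cells became 112 with a pseudocount of 0.1, 415 with 10, 494 with quantile normalization and 979 with the replicate block, and ran from 18 to 1059 with 1 library left out. The 1791 calls in CD24+Tomato+ cells became 2885 with the block and fell to as few as 168 without CD24+Tomato+ replicate 2. With a minimum mean of 50, Alox5 and Ptgs1 in the first table and Il25 in the second could not be tested. A test on recovered reads with edgeR was not run, as the values were not whole reads. In CD24negTomato+ libraries Gfi1b lay near or below the level of 3 reads and Il25 was listed at 0 in all 3.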
